A study of Mus musculus with 12 samples.

Results

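A panel of 10 genes that reports 2 linked stress programs was followed in hematopoietic stem cells, the rare marrow cells from which every blood lineage is renewed. The 10 members, out of 27179 genes listed, were named by symbol, with earlier results of these data known. Atf4, Ddit3, Trib3, Chac1, Asns, Psat1 and Phgdh report the ATF4 arm of the integrated stress response, and Xbp1, Hspa5 and Dnajb9 report protein folding in the endoplasmic reticulum. All 10 passed the low-count filter that left 14473 genes for testing. Total RNA of these cells, sorted from 12 C57BL/6J mice, was sequenced, with 1 library per mouse and 3 mice per genotype. Group CE (CE1, CE2 and CE3) carried the Emu-myc transgene on the Casp1 -/- Casp11 -/- background, and group E (E1, E2 and E3) carried the transgene alone. Group C (C1, C2 and C3) was Casp1 -/- Casp11 -/- without the transgene, and group WT (WT2, WT3 and WT4) was wild-type. The transgene drives Myc from an immunoglobulin heavy chain enhancer that is most active in B lineage cells, and both caspase genes, which act in pyroptosis, were mutated in the germ line. Ages and sexes are not in the labels.

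Unfolded protein in the endoplasmic reticulum is sensed by PERK, IRE1 and ATF6. PERK, like the kinases that sense amino acid shortage, double-stranded RNA or lack of heme, phosphorylates eIF2, which slows translation in general while the transcription factor ATF4 is made more efficiently. ATF4 is thus regulated largely at translation, IRE1 acts on XBP1 by splicing its mRNA, and gene counts see neither step. In hematopoietic stem cells this network is known for linking tight control of protein synthesis to survival under stress.

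The members differ in the response elements near their start sites, and the stretches below show the matches found. Windows of 300 bases (250 before and 50 after the RefSeq start, GRCm38.p6) were found for all 10 members, 11 windows in all. They were searched on both strands for the C/EBP-ATF response element core TGATGNAA, bound by ATF4, and for the endoplasmic reticulum stress element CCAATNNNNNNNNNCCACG, bound by ATF6 with NF-Y. The first was held by 3 members and by 3.97% of 32851 windows of all genes, and the second by Hspa5 and by 0.119% of windows. Capitals mark the match, each sequence reads along the gene's strand, and no searched motif overlapped another. The Hspa5 stretch is chr2:34771965-34772089 (+), the Asns stretch chr6:7693210-7693292 (-), the Chac1 stretch chr2:119350992-119351116 (+) and the Trib3 stretch chr2:152344028-152344057 (-).
Hspa5: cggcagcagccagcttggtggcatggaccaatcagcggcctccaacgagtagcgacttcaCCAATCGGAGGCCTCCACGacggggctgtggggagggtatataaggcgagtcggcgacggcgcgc
Asns: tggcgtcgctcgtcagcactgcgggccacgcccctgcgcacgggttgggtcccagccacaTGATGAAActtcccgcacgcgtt
Chac1: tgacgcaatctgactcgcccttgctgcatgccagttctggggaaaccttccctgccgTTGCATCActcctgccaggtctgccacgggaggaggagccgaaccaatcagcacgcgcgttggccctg
Trib3: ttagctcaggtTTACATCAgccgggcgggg
In Chac1 and Trib3 the core reads on the opposite strand. The Hspa5 element ends 46 bases before the start, the Asns core 15 and the Chac1 core 185 bases before it, and the Trib3 core begins after 14 transcribed bases. The letters ATTGGNCCACG (a second stress element, 0.0365% of windows), TGACGTGG (the unfolded protein response element core, 0.676%) and TGACGTCA (the cAMP response element, 1.79%) were in no member's window. A match describes the letters of a window and is not a measured binding site.

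Levels differed widely between members. They are compared here as CPM, read counts scaled to effective library size, per kilobase of merged exons, averaged over the 12 libraries. On that scale Hspa5 stood at 185, Atf4 at 171 and Phgdh at 163. Their ranges of group means overlapped, 154 to 202 for Hspa5, 151 to 189 for Atf4 and 146 to 175 for Phgdh, so these neighbours are not ordered beyond the spread between groups. Psat1 (71.3) and Xbp1 (59.3) came next and also overlapped. Ddit3 (25.1), Dnajb9 (16.1), Asns (8.64), Trib3 (1.59) and Chac1 (0.27) followed, each with group means below those of the one before it. Trib3 had 38 to 149 counts per library and Chac1 5 to 28, so counting error weighs most on these members. Phgdh has 9 processed pseudogenes at 95.3 to 98.7% identity, and Ddit3 shares exon bases with Mars1 on the opposite strand, so the counts of both are uncertain in how reads were assigned.

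Total counts were 24529611 to 34065910 per library. C1 and C3 stood apart in having counts for 22900 and 21247 genes, where the other libraries had them for 17310 to 18863. Casp1 was at 5.72 to 6.76 CPM in CE and 5.10 to 6.39 in C, against 37.8 to 45.1 in E and 29.8 to 47.8 in WT. All 10 stem cell markers were detected in every library, with a summed CPM of 569 to 862. Markers of other cell types were present too. Of these, 7 of 8 B lineage genes, 6 of 7 neutrophil and monocyte genes and 5 of 6 plasma cell genes had counts in every library. The 7 neutrophil and monocyte genes summed to 6331 to 10526 CPM, above the stem cell sum, with Mpo alone reaching 9054 CPM. Ms4a1 (B cells) and Ly6g (neutrophils) were at 0 in 7 of 12 libraries, Cd3e and Cd3g (T cells) in 3 and 2 and Tnfrsf17 (plasma cells) in 1. Summed CPM of 4 Y-linked genes was 91.4 to 121 CPM in 5 libraries (all of C, with CE1 and CE2) and 0.037 to 0.26 CPM in the other 7, so Y-linked RNA and the caspase knockout cannot be told apart except through CE3. In sorted cells measured in bulk, fewer cells of a type and less RNA per cell cannot be told apart.

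**Figure D1:**
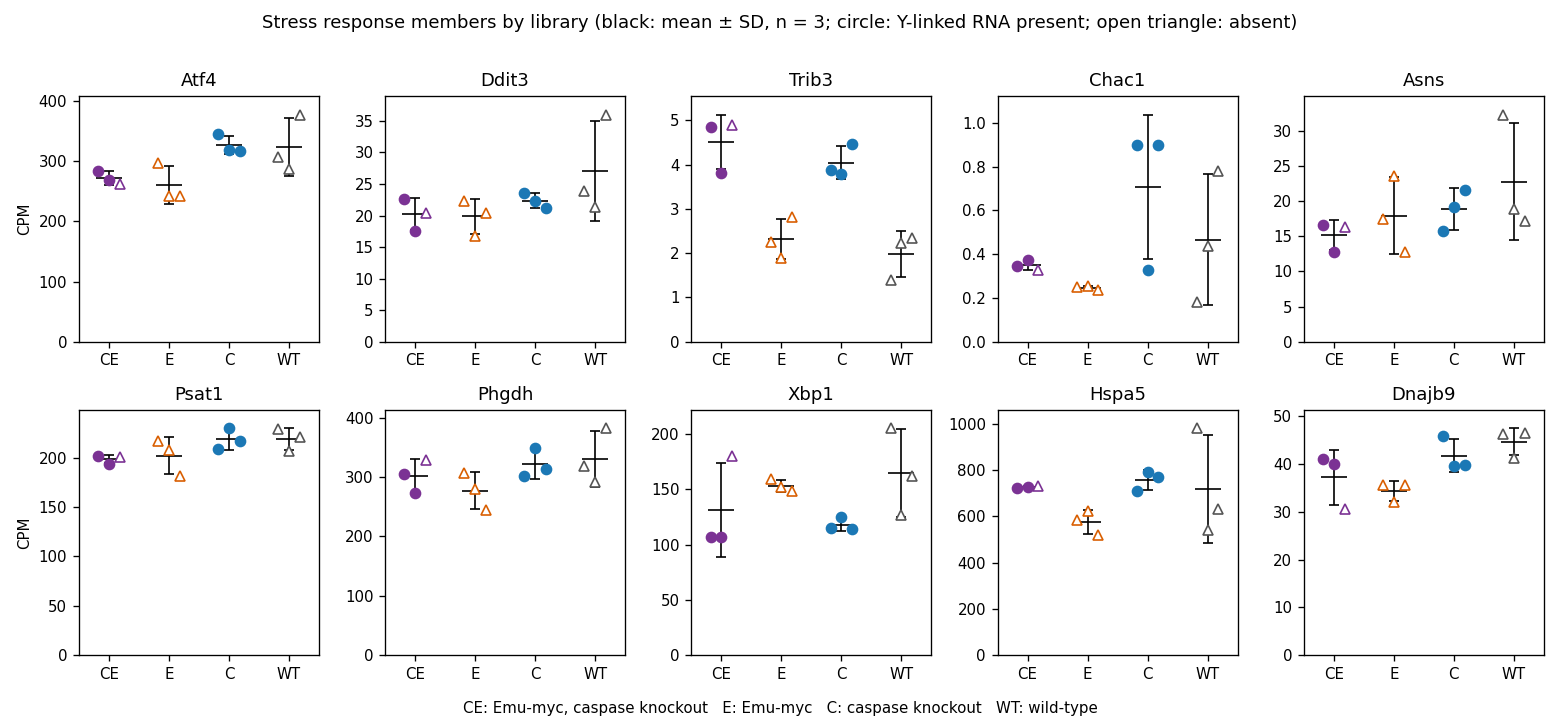
Each panel plots one member's level in CPM (vertical axis, from 0) for the CE, E, C and WT groups, with one point per library and the group mean ± SD (n = 3) in black. Circles mark libraries with Y-linked RNA and open triangles those without. Trib3 lies at 3.79 to 4.89 CPM in CE and C and at 1.39 to 2.81 CPM in E and WT, while the other members overlap between those libraries.

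Trib3, a pseudokinase induced by ATF4 that feeds back on it, was the only member that passed the test in any comparison of the main fit, and it did so on the caspase knockout. It was at 4.84, 3.81 and 4.89 CPM in CE1, CE2 and CE3, against 2.25, 1.90 and 2.81 CPM in E1, E2 and E3. On the background without the transgene it was at 3.87, 3.79 and 4.47 CPM in C1, C2 and C3, against 1.39, 2.23 and 2.34 CPM in WT2, WT3 and WT4. Every knockout library was above every library with the caspases, and the 6 against 6 libraries did not overlap, as for 8.08% of all genes tested. In CE against E the change was 1.95-fold (log2 0.96, SE 0.22, edgeR adjusted p = 0.0462). C stood 2.04-fold above WT (log2 1.03, SE 0.23), with an adjusted p of 0.051 that misses the threshold. Averaged over both backgrounds, CE and C were 1.99-fold above E and WT (log2 1.0, SE 0.16, edgeR adjusted p = 0.0027). For the transgene it did not pass, with log2 0.22 (SE 0.23, 95% interval -0.28 to 0.72) in E against WT and 0.16 (SE 0.22, interval -0.30 to 0.62) in CE against C.

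The size of the Trib3 difference held while its call varied. In CE against E it was lost when any 1 library other than WT2 or WT4 was left out (adjusted p up to 0.201), with log2 values of 0.84 to 1.12. The averaged call held in all 12 such fits (adjusted p 0.000512 to 0.0131). With a covariate for Y-linked transcripts the averaged log2 value was 1.14 with an adjusted p of 0.178, and without C1 and C3 together it was 0.95 with 0.0884. CE3, which lacked Y-linked RNA, had the highest Trib3 of all 12 libraries. The Y-linked covariate is estimated from CE3 against CE1 and CE2 alone, since no other group holds both kinds of library. With only the 7 libraries without Y-linked RNA, where CE3 alone stands for CE, the log2 value in CE against E was 1.07. That value has no replicate on the CE side.

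No other ATF4 target among the members passed. Chac1, which degrades glutathione, was at 0.35, 0.37 and 0.33 CPM in CE1, CE2 and CE3, and at 0.25, 0.25 and 0.24 CPM in E1, E2 and E3. It was at 0.90, 0.33 and 0.90 CPM in C1, C2 and C3, against 0.18, 0.44 and 0.78 CPM in WT2, WT3 and WT4. C1 and C3 were high and C2 level with CE, and the E libraries lay closest together. The difference in CE against E was log2 0.49 (SE 0.56, adjusted p = 0.64) and in C against WT 0.61 (SE 0.48, adjusted p = 0.47). Without C1 and C3 the value in CE against C turned from -1.0 to 0.09, neither past the threshold.

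Asns, which makes asparagine, was at 16.5, 12.7 and 16.3 CPM in CE1, CE2 and CE3, 17.5, 23.6 and 12.8 CPM in E1, E2 and E3, and 15.7, 19.2 and 21.6 CPM in C1, C2 and C3, against 32.3, 18.8 and 17.2 CPM in WT2, WT3 and WT4. WT2 was high alone, and all groups overlapped. Psat1 and Phgdh are enzymes of serine synthesis. Psat1 was the steadiest member, with its highest library 1.27 times its lowest. It lay at 194 to 201 CPM in CE and 181 to 217 CPM in E, at 209 to 230.1 CPM in C, and at 207 to 229 CPM in WT. Phgdh lay at 273 to 329 CPM in CE and 244 to 307 CPM in E, at 302 to 350.2 CPM in C, and at 292 to 384 CPM in WT. Neither passed in any comparison.

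Atf4, the transcription factor itself, was at 284, 269 and 261 CPM in CE1, CE2 and CE3, against 344, 318 and 317 CPM in C1, C2 and C3, and these groups did not overlap. It was at 298, 242 and 242 CPM in E1, E2 and E3, against 306, 286 and 377 CPM in WT2, WT3 and WT4, which overlapped through E1. Averaged over both backgrounds the transgene difference was log2 -0.29 (SE 0.08, unadjusted p = 0.00306, edgeR adjusted p = 0.188). With DESeq2 the same difference had an adjusted p of 0.042.

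Ddit3, the pro-apoptotic factor CHOP, was at 22.7, 17.5 and 20.4 CPM in CE1, CE2 and CE3 and at 22.3, 16.8 and 20.5 CPM in E1, E2 and E3. It was at 23.6, 22.3 and 21.1 CPM in C1, C2 and C3, against 23.9, 21.3 and 36.0 CPM in WT2, WT3 and WT4. WT4 stood apart and set the WT mean. Averaged over both backgrounds the transgene difference was log2 -0.30 (SE 0.12, adjusted p = 0.47).

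In the folding arm, Hspa5, the chaperone BiP, was at 724, 726 and 733 CPM in CE1, CE2 and CE3, against 586, 624 and 519.6 CPM in E1, E2 and E3. It was at 712, 793 and 769.8 CPM in C1, C2 and C3, against 984, 541 and 633 CPM in WT2, WT3 and WT4. CE lay above E without overlap, while WT2 was the highest and WT3 among the lowest of all libraries. The difference in CE against E was log2 0.34 (SE 0.17, edgeR adjusted p = 0.24), and in C against WT 0.08 (SE 0.17). Without WT2 the averaged caspase difference was log2 0.36 (edgeR adjusted p = 0.00903), against 0.21 (edgeR adjusted p = 0.22) with it. Limma voom on all libraries called it as well (log2 0.32, adjusted p = 0.0152). That fit used quality weights, so the libraries did not count equally.

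Xbp1, the factor that IRE1 activates, was at 107, 107 and 180.1 CPM in CE1, CE2 and CE3, 159, 152 and 148 CPM in E1, E2 and E3, and 115, 125 and 114 CPM in C1, C2 and C3, against 206, 127 and 162 CPM in WT2, WT3 and WT4. All 3 C libraries lay below all 3 WT libraries (log2 -0.48, SE 0.19, adjusted p = 0.14), and CE3 stood far above CE1 and CE2. The averaged caspase difference was log2 -0.35 (SE 0.13, edgeR adjusted p = 0.071), which became -0.49 (adjusted p = 0.00878) without CE3 and -0.44 (adjusted p = 0.0274) without WT3. DESeq2 (adjusted p = 0.0431), voom (0.0142) and edgeR with no filter (0.00152) also called it, where 3595, 4320 and 3479 of all genes were called. Without WT2 and WT4 it was -0.17 (adjusted p = 0.44), and the difference in C against WT was -0.12. The 5 libraries with Y-linked RNA held 107 to 125 CPM of Xbp1 and the 7 without held 127 to 206 CPM, a separation that 3.38% of all genes tested also showed. With the Y-linked covariate the averaged value turned to 0.25 (adjusted p = 0.47), in a fit that called 2 of all genes for this effect. That covariate is estimated from CE3 against CE1 and CE2 alone. Plasma cells express much Xbp1, and the summed CPM of 6 plasma cell markers was 136 in E1 and 155 in E2 against 31.8 to 62.6 in the other libraries; their part in the Xbp1 values was not tested.

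Dnajb9, a co-chaperone of Hspa5, was at 35.6, 32.0 and 35.5 CPM in E1, E2 and E3, against 46.3, 41.4 and 46.5 CPM in WT2, WT3 and WT4. It was at 41.0, 40.1 and 30.6 CPM in CE1, CE2 and CE3, against 45.9, 39.7 and 39.9 CPM in C1, C2 and C3. E lay below WT without overlap, and CE overlapped C. The difference in E against WT was log2 -0.38 (SE 0.12, unadjusted p = 0.00582, adjusted p = 0.52).

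By comparison, no member passed in E against WT, where edgeR called 0.0829% of all genes. DESeq2 and limma voom also called no member, and 3 members had an unadjusted edgeR p under 0.05, as did 6.58% of all genes. Values were lower in E for 9 of 10 members, with a median log2 of -0.32, against 50.6% of all genes lower and a median of -0.0025. Dnajb9 was the member whose groups did not overlap (8.02% of all genes). Highest levels of all 12 libraries fell in WT2 or WT4 for 7 of 10 members. Without both libraries, a fit chosen after seeing the data that leaves WT3 alone in its group, 7 of 10 were lower with a median of -0.071. With any 1 library left out the log2 value stayed below 0 for Atf4 (-0.40 to -0.18), Ddit3, Chac1, Psat1, Phgdh, Dnajb9 (-0.44 to -0.33) and Hspa5 (-0.49 to -0.011). It crossed 0 for Asns (-0.59 to 0.013) and Xbp1 (-0.27 to 0.10) and stayed above 0 for Trib3.

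In CE against C no member passed (0.207% of all genes called), with none by DESeq2 or voom either and 1 at an unadjusted p under 0.05 (5.14% of all genes). Values were lower in CE for 8 of 10 members, with a median log2 of -0.14 against 0.0079 for all genes. Atf4 and Psat1 did not overlap between CE and C (14.9% of all genes). Over both backgrounds no member passed for the transgene (0.539% called) and none was separated 6 against 6 (0.746%), while 4 had an unadjusted p under 0.05 (8.98% of all genes). B lineage markers moved with the transgene. Their summed CPM was 61.2 to 69.5 in CE and 60.7 to 73.0 in E, against 133 to 198 in C and 85.3 to 149 in WT. Of 7 tested, 2 fell in E against WT (median log2 -1.56), 5 in CE against C (median -2.40) and 6 on average (median -2.07), and their part in the members' values was not tested.

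In C against WT no member passed (0.656% of all genes called) and 2 had an unadjusted p under 0.05 (23.2% of all genes), while DESeq2 and voom each called Trib3. Trib3 and Xbp1 were separated there (26.3% of all genes). In CE against E 1 of 10 passed (1.58% of all genes), and Trib3, Chac1 and Hspa5 were separated (29.9%). On average over both backgrounds 1 of 10 passed, against 21.0% of all genes. The difference between the transgene effects on the 2 caspase backgrounds passed for no member and for 0% of all genes, with 0 members and 2.11% of all genes at an unadjusted p under 0.05 and no member called by DESeq2 or voom.

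**Figure D2:**
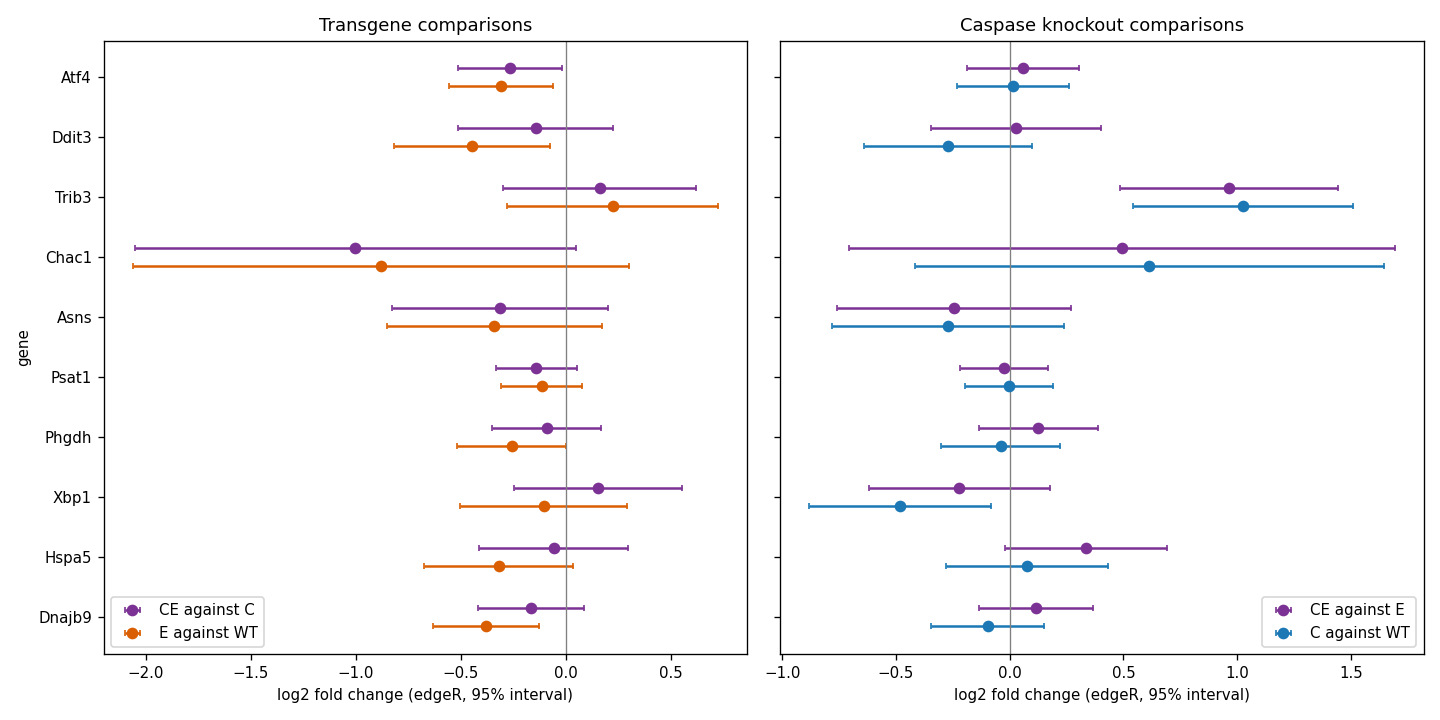
Log2 fold changes with 95% intervals from edgeR (horizontal axis) are shown for each member, with CE against C and E against WT in the left panel and CE against E and C against WT in the right. Trib3 stands clear of 0 in both caspase comparisons, at 0.96 and 1.03, and most transgene values lie below 0.

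**Figure D3:**
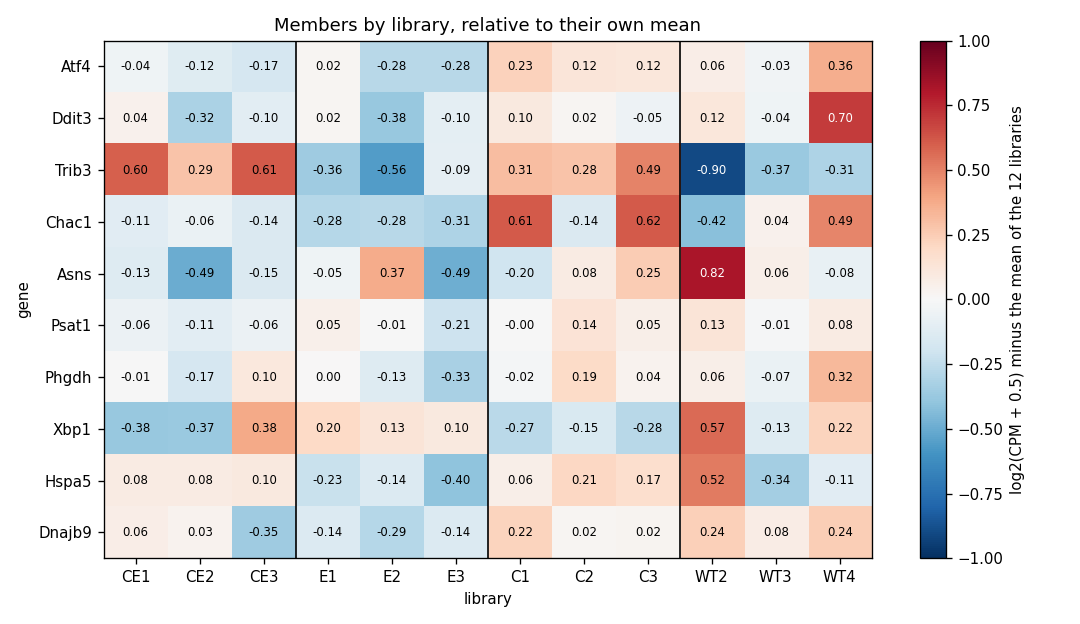
Colours and numbers give log2(CPM + 0.5) of each member minus its mean over the 12 libraries, with libraries of CE, E, C and WT from left to right. WT2 stands out for Asns, Xbp1 and Hspa5 and WT4 for Atf4 and Ddit3, while Trib3 is high in all 6 libraries of CE and C.

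Around the members, 75 of 77 further genes of the 2 programs were tested (Fgf21 and Aldh1l2 were filtered out). On average over the caspase comparisons 15 of 75 passed, 4 higher and 11 lower in CE and C. That is a share near the 21.0% of all genes. With the Y-linked covariate, or without C1 and C3 together, none of the 75 passed, and with 1 library left out 6 (without C3, E1 or WT2) to 32 (without WT4) did. Over all genes the Y-linked covariate left 2 called, against 3042, and the fits without 1 library called 1594 to 4667. Of 25 other ATF4 targets, Sesn2, a sensor that restrains mTORC1, rose 1.53-fold (log2 0.62, SE 0.11, edgeR adjusted p = 0.00348), and Ddit4, another mTORC1 inhibitor, rose 1.69-fold (log2 0.76, SE 0.19, adjusted p = 0.0152). Their list had a median log2 of 0.11, against 0.00016 for all genes. Of 15 sensors and eIF2 factors, Ppp1r15a, the phosphatase subunit that reverses eIF2 phosphorylation, rose 1.45-fold (log2 0.54, SE 0.14, adjusted p = 0.0179), and Eif2s1 and Eif2b1 fell.

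Sesn2 was at 10.5, 9.68 and 11.7 CPM in CE1, CE2 and CE3 against 7.30, 7.88 and 8.06 CPM in E1, E2 and E3, and at 12.1, 11.2 and 10.2 CPM in C1, C2 and C3 against 5.12, 7.30 and 7.06 CPM in WT2, WT3 and WT4. Like Trib3 it was higher in every knockout library. It was also the 1 gene of the 75 that passed in C against WT (log2 0.78, SE 0.15, edgeR adjusted p = 0.0461). That call was lost in 8 of 12 fits that left out 1 library. There edgeR called 0.656% of all genes, and 17 of the 75 had an unadjusted p under 0.05 (23.2% of all genes). DESeq2 called 5 of the 75 and voom 10, against 1206 and 1773 of all 14473 genes. Ddit4 and Ppp1r15a behaved otherwise than Sesn2 in 1 library. WT4 held 60.9 CPM of Ddit4 and 368 CPM of Ppp1r15a. WT2 and WT3 held 23.2 and 27.8 CPM of Ddit4 and 178 and 203 CPM of Ppp1r15a.

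Immediate early and heat shock genes, which rise during cell handling, moved with the same groups. Summed CPM of 13 such genes was 14643 to 17911 in CE and 15769 to 16881 in C, against 6464 to 8343 in E and 5767, 6992 and 14256 in WT2, WT3 and WT4, and 12 of 13 rose on average in CE and C. WT4 had a sum near that of the knockout libraries, with Ddit4 and Ppp1r15a high and with Trib3 at 2.34 CPM and Sesn2 at 7.06 CPM, inside the range of the E libraries or below it. The part of this list in the Trib3 and Sesn2 values was not tested.

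**Figure D4:**
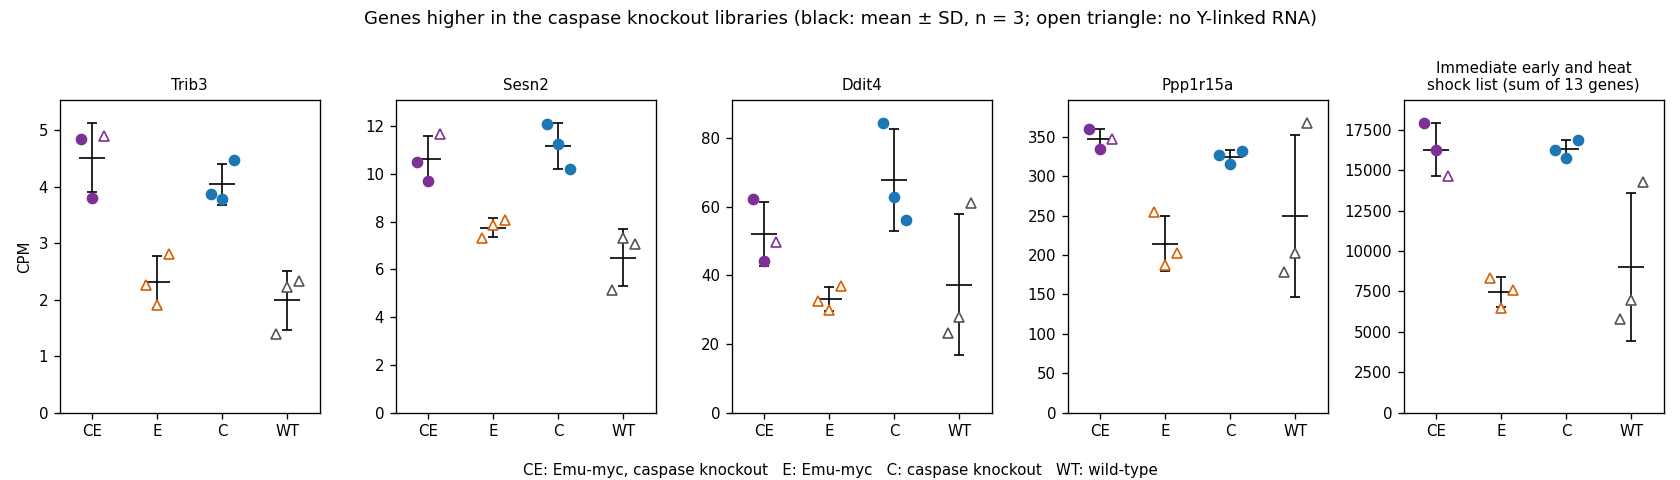
Trib3, Sesn2, Ddit4, Ppp1r15a and the sum of 13 immediate early and heat shock genes are plotted in CPM (vertical axes, from 0) by group, one point per library, with mean ± SD (n = 3) in black and open triangles for libraries without Y-linked RNA. WT4 lies within or above the range of the knockout libraries for Ddit4 and Ppp1r15a, at 60.9 and 368 CPM, just below them for the sum, at 14256 CPM, and with E and the other WT libraries for Trib3 and Sesn2.

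Of 35 folding and degradation genes of the endoplasmic reticulum, 9 fell and 1 rose on average in CE and C, against 21.0% of all genes called in either direction. Values were lower for 29 of 35, or 82.9%, against 50% of all genes, with a median log2 of -0.13. With the Y-linked covariate 17 of 35 were lower, with a median of 0.00095. That covariate is estimated from CE3 against CE1 and CE2 alone, so this value rests on 1 library and does not settle the lean. Selenos, a degradation factor, fell by 0.54 on the log2 scale (SE 0.10, edgeR adjusted p = 0.00369) and Sec61b, a translocon subunit, fell by 0.43 (SE 0.11, adjusted p = 0.0127), while Calr, a lectin chaperone, rose 1.24-fold (log2 0.31, SE 0.08, adjusted p = 0.016). Hsp90b1, Canx, Pdia3, Pdia6, Dnajb11, Manf and Derl2 fell as well, by 0.25 to 0.48. The chaperone Hspa5 was not among the genes that fell. Markers of some other cell types fell in the same comparison, 3 of 4 for basophils and mast cells (median log2 -0.83), 2 of 5 for macrophages (median -0.76) and 1 of 5 for plasma cells (median -0.62). So did 1 of 5 for erythroid cells, 1 of 4 for megakaryocytes and 1 of 2 for T and NK cells. Other lists went otherwise. Of stem cell markers 4 of 10 rose (median 0.18), as did 1 of 7 for the B lineage (median 0.50), and 0 of 6 passed for neutrophils and monocytes (median 0.035). Summed CPM of the basophil and mast cell list was 62.2 to 66.0 in CE against 83.2 to 163 in E, and 74.1 to 105 in C against 129 to 216 in WT. The macrophage list summed to 9.92 to 12.2 CPM in CE against 14.9 to 27.0 CPM in E, and to 11.2 to 13.8 CPM in C against 13.9 to 17.1 CPM in WT. The part of any of these cell types in the folding gene values was not tested.

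**Figure D5:**
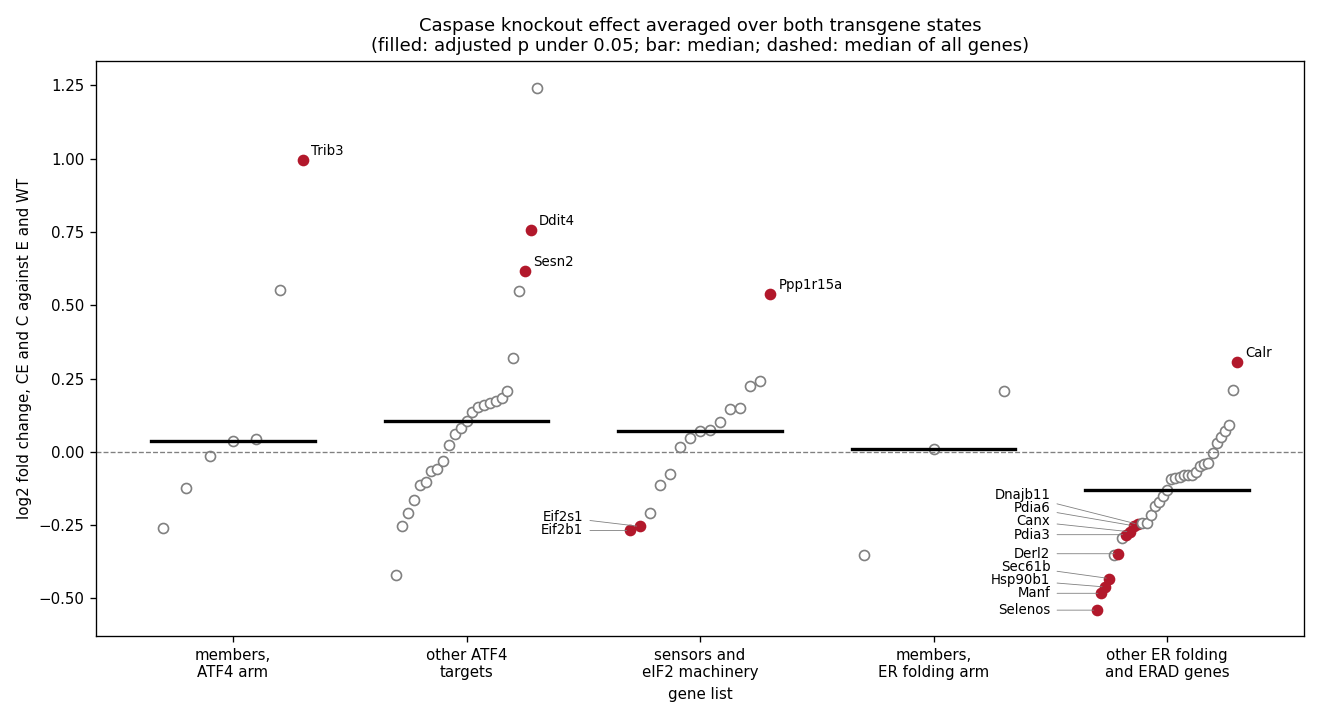
Each point is the averaged log2 fold change of one gene in CE and C against E and WT (vertical axis), by list, with filled points at an adjusted p under 0.05, bars at list medians and a dashed line at the median of all genes. Trib3 leads the members at 1.0, and 29 of 35 other folding and degradation genes lie below 0, with a median of -0.13, while Calr is called at 0.31.

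For the transgene few of these genes passed. In E against WT edgeR called none of 75, with 5 at an unadjusted p under 0.05 (6.58% of all genes). There voom called none and DESeq2 called 1, against 17 and 52 of all 14473 genes. Atf3, a stress factor downstream of ATF4, had the smallest edgeR p (log2 -3.11, SE 0.72, adjusted p = 0.25), and it passed with DESeq2 (adjusted p = 0.0498) and in edgeR with no filter (adjusted p = 4.81e-20). With no filter its SE was 0.26, and 217 of all genes passed, against 12 in the main fit. Atf3 passed in 0 of 12 edgeR fits that left out 1 library. It was at 10.2, 3.64 and 4.82 CPM in E1, E2 and E3, against 19.8, 13.5 and 127 CPM in WT2, WT3 and WT4. In CE against C edgeR, DESeq2 and voom called none, with 4 at an unadjusted edgeR p under 0.05 (5.14% of all genes). Atf3 had log2 -1.55 (SE 0.65, adjusted p = 0.87) and passed in edgeR fitted to these groups alone (adjusted p = 0.0475) and with no filter (8.33e-07). With no filter 203 of all genes passed, against 30 in the main fit. Atf3 again passed in 0 of 12 fits that left out 1 library. It was at 40.3, 19.9 and 14.7 CPM in CE1, CE2 and CE3, against 100.1, 69.8 and 49.3 CPM in C1, C2 and C3. Averaged over both backgrounds it fell 5.03-fold (log2 -2.33, SE 0.48, edgeR adjusted p = 0.0438), a call that held in 3 of 12 fits that left out 1 library, each time a WT library, and without WT4 the log2 value was -1.49. Without WT2 and WT4 together the log2 value was -1.34 (adjusted p = 0.16). In CE against E edgeR called none of the 75, with 17 at an unadjusted p under 0.05 (22.6% of all genes). There DESeq2 called 3 and voom 7, against 1182 and 1392 of all 14473 genes. Ppp1r15a (log2 0.69, SE 0.20, edgeR adjusted p = 0.077) and Selenos (log2 -0.48, SE 0.14, edgeR adjusted p = 0.073) had the smallest p there. DESeq2 called both (adjusted p = 0.0132 for Ppp1r15a and 0.0217 for Selenos), as did voom (0.00411 and 0.0103), edgeR with no filter and edgeR fitted to these groups alone. For the difference of the transgene effects edgeR, DESeq2 and voom called none, with 0 at an unadjusted edgeR p under 0.05, and edgeR with no filter called 1.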

How the data were processed

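The deposited table held raw read counts per gene for 12 libraries, with no normalization by the authors found in the values. Alignment with STAR 2.5.3 to mm10 is given by the submitters' processing notes. What counted the reads, on which annotation and strand, is not given in the sources used here. RefSeq symbols matched 25275 of 27179 gene numbers. Members and lists were chosen with earlier results of these data known.

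All 12 libraries entered 1 fit per gene in edgeR 4.0.16 (R 4.3.3) with TMM factors, filterByExpr by group and two-sided quasi-likelihood F tests. Benjamini-Hochberg adjustment ran over 14473 genes, with calls at an adjusted p under 0.05. Averaged effects are the mean of the 2 contrasts. CPM are counts at effective library size, and exon lengths are merged GENCODE M21 exons. Replicate numbers were not used as pairs. Of same-numbered pairs 4 of 15 correlated above 0.1, and of the others 8 of 39, which does not settle whether mice were paired. P-values rest on the spread between mice as each fit estimates it, and that estimate changed with the filter. The pipeline was tested on simulated data. The limit on false calls there was set for edgeR alone, after DESeq2 had exceeded it in a first run.

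All 10 members were named in every comparison. Of the other genes, up to 6 that passed with the smallest p were named, or the 2 with the smallest p where none passed; the genes that fell with Selenos, and Eif2s1 and Eif2b1, were named after their values were seen. Alternatives used RLE factors, other filters, DESeq2 1.42.0 and limma 3.58.1 voom with quality weights, which let libraries count unequally in every voom result. Others used only the groups compared, a replicate block, a Y-linked covariate, and fits without libraries. The fits of only the libraries without Y-linked RNA and without WT2 and WT4 were chosen after seeing the data.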

Additional observations from a re-analysis of the deposited data

How the results depend on the processing

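Among 1521 member values under 23 alternatives, 1366 kept their direction and side of the threshold, 21 newly passed, 15 no longer passed, and 119 turned sign without passing before or after. No value that passed reversed. The count of members called in C against WT, 0 in the fit reported, was 1 with RLE factors, with the stricter filter, with DESeq2, with voom and with the replicate block, 2 with no filter (Trib3 and Xbp1), and 0 to 1 with 1 library left out. In CE against E it was 1, and became 0 with the Y-linked covariate, without C1 and C3, and with only the libraries without Y-linked RNA, 2 without WT2 and WT4 (Trib3 and Hspa5), and 0 to 2 with 1 library left out. For the averaged caspase effect it was 1, and became 2 with no filter, with DESeq2 and without WT2 and WT4, 3 with voom, 0 with the Y-linked covariate and without C1 and C3, and 1 to 2 with 1 library left out. For the averaged transgene effect it was 0, and 1 with DESeq2 (Atf4). Calls over all genes moved too. In C against WT they were 95 in the fit reported, 1206 with DESeq2, 1773 with voom and 1554 with no filter. In CE against E they were 229, and 1182, 1392 and 1172 in that order. For the averaged caspase effect they were 3042, and 3595, 4320 and 3479. With the Y-linked covariate 2 genes remained in CE against E and 2 for the averaged caspase effect. The causes of these changes were not tested. Fits with 1 library left out differ both in the number of libraries and in which one is missing. Over all genes they called 7 to 2258 in C against WT and 2 to 1578 in CE against E. The replicate block pairs by number alone. It leaves WT4 without a partner, so that library no longer informs the contrasts, and it raised the calls over all genes to 2045 in C against WT, against 95, and to 1475 in CE against E, against 229. Under it Atf3 passed in E against WT (adjusted p = 0.00188) and CE against C (0.00048), and Ppp1r15a (0.00299) and Selenos (0.0479) in CE against E. For 2 of 12 libraries the best correlation was with a library of the same number. Fits of only the groups compared were not run for the averages and the difference, which use all 4 groups. Low counts limit Chac1 and Trib3.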
